A study of Mus musculus with 6 samples.

Results

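H/ACA small nucleolar RNAs (snoRNAs) and small Cajal body RNAs (scaRNAs) were examined in mouse heart. Members were the rows of the deposited expression table whose annotated gene symbol starts with Snora or Scarna and a digit. There were 42 of them, 34 Snora and 8 Scarna, among 23185 rows with a gene symbol. The samples were 3 arrays from irisin knockout animals and 3 from wild type littermates, all of strain FVB, fed standard chow with 10% fat for 24 weeks. The knockout was made by injecting zygotes with Cas9 mRNA and 5 guide RNAs, and the labels name neither a tissue-specific driver nor the zygosity, sex or age of the sampled animals. Irisin is a secreted peptide released from the membrane-bound product of Fndc5. The material is called cardiomyocytes in some label fields and myocardium in another, so isolated cells and pieces of muscle cannot be told apart. Whether each array of a group stands for a separate animal is not spelled out in the labels. If some share an animal, the p-values below reflect a spread that may be technical. The study, by its title, concerned irisin deficiency, diet-induced insulin resistance and cardiac injury.

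Most H/ACA RNAs are short nuclear RNAs that fold into paired hairpins and bind 4 core proteins, dyskerin, Nop10, Nhp2 and Gar1. Each pairs with a target RNA and positions dyskerin to turn a chosen uridine into pseudouridine. Snora RNAs work in the nucleolus, mostly on ribosomal RNA, and a few take part in cutting the ribosomal precursor. Scarna RNAs stay in Cajal bodies and guide modification of spliceosomal small nuclear RNAs. The Scarna name does not fix the class: from work on human cells, Scarna2 and Scarna9 are box C/D guides of RNA methylation, and Scarna6 and Scarna10 join both structures. In vertebrates nearly all of these RNAs lie inside introns of host genes, often genes for translation factors or ribosomal proteins, and are trimmed out of the host transcript after splicing. Many such hosts begin with a run of pyrimidines, the 5′ terminal oligopyrimidine tract.

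The RNAs' own sequences were not in the files used here. The RefSeq promoter windows (build GRCm38.p6, 250 bases before to 50 after the annotated start) are shown instead for 4 host genes on which the results turn. Ncl, Eif4a2 and Ipo7 hold the Snora RNAs with the largest shift against a host whose row was above the 50th percentile of all rows, and Snhg12 holds more members than any other host. The windows are chr1:86359406-86359705 on the minus strand for Ncl, chr16:23107218-23107517 on the plus strand for Eif4a2, chr7:110018065-110018364 on the plus strand for Ipo7 and chr4:132308428-132308727 on the plus strand for Snhg12. Each is printed 5′ to 3′ on the strand of the gene. Capitals mark the annotated start base and any run of at least 6 C or T that reaches within 20 bases of it.
Ncl: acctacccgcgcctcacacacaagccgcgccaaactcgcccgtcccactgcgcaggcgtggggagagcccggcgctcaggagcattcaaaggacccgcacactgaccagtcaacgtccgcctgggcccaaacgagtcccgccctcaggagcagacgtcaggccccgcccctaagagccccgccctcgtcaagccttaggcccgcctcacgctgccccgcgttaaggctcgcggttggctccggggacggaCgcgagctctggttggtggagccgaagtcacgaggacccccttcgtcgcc
Eif4a2: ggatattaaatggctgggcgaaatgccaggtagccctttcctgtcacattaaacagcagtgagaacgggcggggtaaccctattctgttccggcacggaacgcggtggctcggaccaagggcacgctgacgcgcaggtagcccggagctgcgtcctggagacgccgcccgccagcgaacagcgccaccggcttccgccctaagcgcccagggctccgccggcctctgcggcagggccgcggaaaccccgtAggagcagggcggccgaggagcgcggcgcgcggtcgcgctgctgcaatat
Ipo7: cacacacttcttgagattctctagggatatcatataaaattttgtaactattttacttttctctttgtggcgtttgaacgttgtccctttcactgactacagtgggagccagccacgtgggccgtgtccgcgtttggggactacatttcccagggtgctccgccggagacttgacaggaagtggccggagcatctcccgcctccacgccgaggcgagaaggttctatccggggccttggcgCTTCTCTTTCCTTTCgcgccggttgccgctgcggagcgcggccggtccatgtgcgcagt
Snhg12: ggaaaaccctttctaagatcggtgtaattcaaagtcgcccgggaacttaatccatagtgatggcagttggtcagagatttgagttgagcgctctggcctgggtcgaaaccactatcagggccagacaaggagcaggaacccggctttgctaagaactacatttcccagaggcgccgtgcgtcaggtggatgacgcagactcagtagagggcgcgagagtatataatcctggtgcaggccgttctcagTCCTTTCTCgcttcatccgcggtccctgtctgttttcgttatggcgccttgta
Ipo7 has a run of 15 pyrimidines over its start and Snhg12 a run of 9, while Ncl and Eif4a2 have no such run in this window. Of 34 windows found for 32 of the 36 host genes, 18 (52.9%) held such a run on the gene's strand, against 14421 of all 32851 windows (43.9%). A run of these letters is a description of the window only.

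The H/ACA RNAs were lower in knockout hearts. Of the 42 members, 34 were lower in knockout than in wild type at an adjusted p under 0.05 (limma, Benjamini-Hochberg over all 23185 genes), 0 were higher and 8 did not pass. Over all genes 6.18% were lower and 10.4% higher by the same rule. Without adjustment for multiple tests, 39 members had a p under 0.05 on the lower side in limma and 0 on the higher side. Values are RMA expression values, log2 summaries of a gene's probes made by the authors, and a difference of 1 is a factor of 2. Such values do not compare amounts between genes, because each gene has its own probes. No detection calls were used, so knockout values below the array medians of all genes (2.23 to 2.25) may be background. If they are, a fold there is at least the printed one, provided the wild type values are signal. Where wild type values also lie below their array medians (2.33 to 2.36), both groups may be background and the fold has no such bound. The median difference of the members was −1.37 (quartiles −1.85 and −0.91), against −0.05 over all genes. In 37 of 42 members every knockout array lay below every wild type array, an ordering that 17% of all genes showed. At least 2-fold lower were 29 members, against 1.68% of all genes, and at least 4-fold lower were 10, against 0.237%. These are bulk arrays, in which fewer cells of a type and less RNA per cell cannot be told apart.

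**Figure D1:**
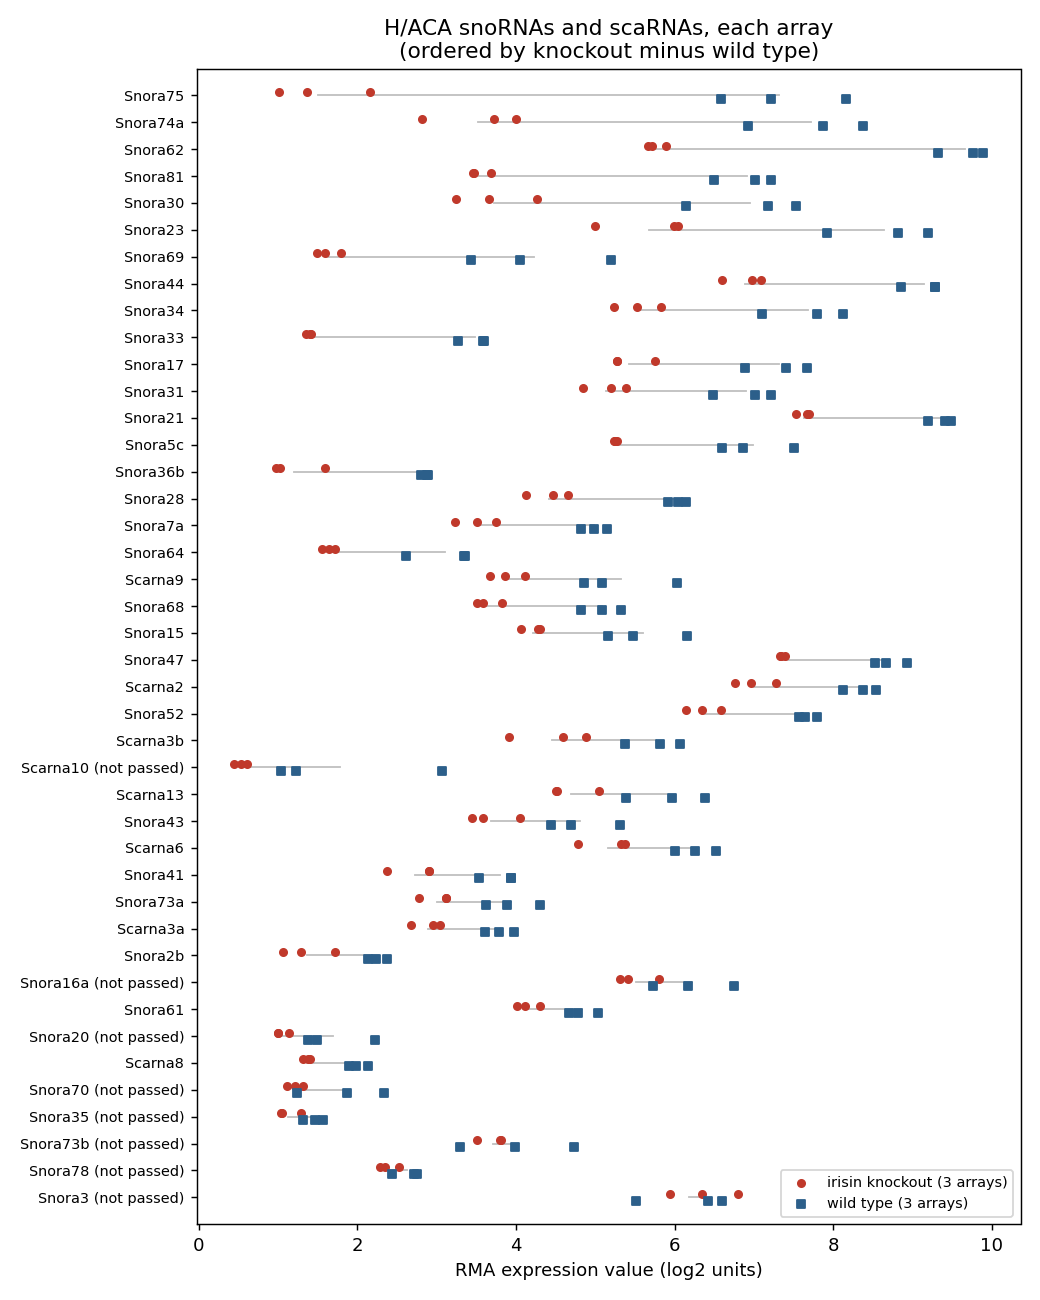
Expression values (log2 RMA units, horizontal axis) of the 42 members, ordered from the most negative to the most positive difference, with knockout arrays as red circles and wild type arrays as blue squares. Grey lines join the group means. In 37 members the 3 knockout points all lie left of the 3 wild type points, and Snora3, at the bottom, is the only member whose mean is higher in knockout.

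With 3 arrays in each group, array number limits the precision of every value. Array medians over all genes lay between 2.23 and 2.25 in knockout and between 2.33 and 2.36 in wild type. Fndc5, the targeted gene, read 7.68, 5.49 and 5.45 in knockout, against 8.42, 8.40 and 7.83 in wild type (difference −2.01, SE 0.54, limma adjusted p = 0.0359). Knockout replicate 1 thus stood closer to wild type for Fndc5 than the other knockout arrays did, and 31 members were lower without it, as many as without knockout replicate 2. The positions of the probes on Fndc5 relative to the edit are not known here. Cardiomyocyte markers (Myh6, Tnnt2, Tnni3, Actc1, Ryr2, Myl2) averaged 11.27 to 11.39 in knockout and 11.09 to 11.5 in wild type, with 0 of 6 passing the limma test. At an unadjusted p under 0.05 was 1 of 6, Actc1, on the higher side. Some markers of other cells were lower in knockout beside the H/ACA RNAs. All 5 smooth muscle markers passed, with array means of 4.57 to 5.11 in knockout and 6.39 to 8.62 in wild type, as did 3 of 6 fibroblast markers (Col1a1, Col1a2, Pdgfra), with means of 6.25 to 6.5 against 6.81 to 7.60. Pecam1 of 5 endothelial markers (array means 7.25 to 7.55 in knockout, 7.67 to 7.74 in wild type) and Cd14 of 4 macrophage markers (4.14 to 4.27, against 4.18 to 4.47) also passed. Other markers on these lists went the other way. Cd68 of the macrophage markers was higher at an unadjusted p under 0.05 in limma (difference 0.39), and Tcf21 (0.1) and Cdh5 (0.17) had positive differences. Of erythroid, adipocyte and lymphocyte markers 0 passed in limma. At an unadjusted p under 0.05 were 1 of 2 erythroid (lower), 0 of 3 adipocyte and 1 of 3 lymphocyte markers (Cd3e, higher). In all 3 lymphocyte markers every knockout array lay above every wild type array. The part of these markers in the result was not tested.

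By array, the median over the 42 members was 3.77, 3.81 and 3.93 in knockout, against 5.27, 6.00 and 5.61 in wild type. The wild type arrays differed more among themselves than the knockout arrays did. Wild type replicate 1 was the lowest of its group for 30 members and wild type replicate 2 the highest for 26, while in knockout the lowest array was replicate 1 for 15 members, replicate 2 for 16 and replicate 3 for 11. The median SD of a member over 3 arrays was 0.225 in knockout and 0.36 in wild type.

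**Figure D2:**
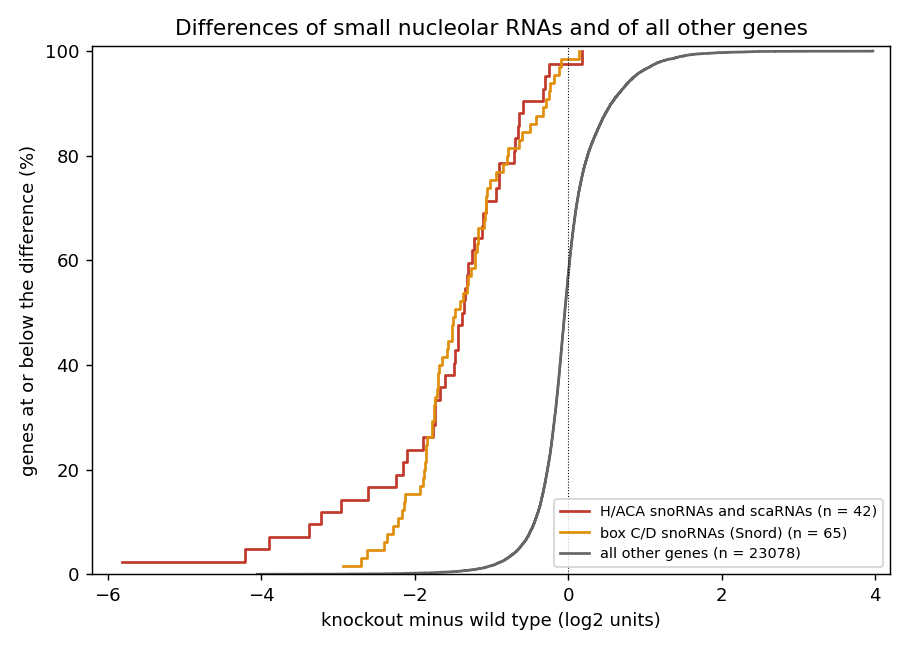
Cumulative share of genes (vertical axis, %) at or below each knockout minus wild type difference (horizontal axis, log2 units) for the 42 H/ACA members, 65 box C/D snoRNAs and all other genes. The curves of both snoRNA classes lie to the left of the curve of other genes, with medians of −1.37 and −1.47, and of these classes the H/ACA RNAs alone extend below −3.

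Guides of small-subunit ribosomal RNA, as assigned from human snoRNAs, made up 10 members, of which 8 were lower (median difference −1.64). Snora75, whose human counterpart guides pseudouridylation of small-subunit RNA, had the most negative difference of all 23185 genes. It read 1.36, 1.01 and 2.16 in knockout, against 6.58, 7.22 and 8.16 in wild type. The knockout values were near the bottom of the scale and the wild type values were well inside it, a difference of −5.81 (SE 0.41), or 56.1-fold lower, with a limma adjusted p of 0.000211. Snora69 read 1.79, 1.59 and 1.49 in knockout, against 3.43, 5.20 and 4.05 in wild type, 6.09-fold lower (adjusted p = 0.00295). Snora44, one of the guests of Snhg12, read 6.60, 7.09 and 6.98 in knockout, against 8.85, 9.29 and 9.28 in wild type, 4.75-fold lower (adjusted p = 0.000323). In both RNAs all knockout arrays were below all wild type arrays, and in Snora69 the wild type arrays spread over more than 1 log2 unit.

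Among the other small-subunit guides, Snora5c gave 5.27, 5.24 and 5.25 in knockout, against 6.60, 7.51 and 6.86 in wild type, 3.34-fold lower (limma adjusted p = 0.00161). Snora36b gave 0.97, 1.59 and 1.03 in knockout, against 2.88, 2.89 and 2.80 in wild type, 3.17-fold lower (adjusted p = 0.000793), with knockout values below the array medians of all genes. The groups stayed apart in both. Snora28 (3.05-fold), Snora15 (2.61-fold) and Snora41 (2.11-fold) were also lower, with limma adjusted p of 0.00066, 0.00565 and 0.00589. Snora20 (difference −0.65, adjusted p = 0.0726) and Snora70 (−0.59, adjusted p = 0.148) did not pass, although the Snora20 groups did not overlap. Snora20 would pass without wild type replicate 2 (adjusted p = 0.0392) and Snora70 without wild type replicate 3 (adjusted p = 0.0169). The values of Snora20, and those of Snora70 except in wild type replicate 1, lay below the array medians of all genes and may be background.

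Guides of large-subunit ribosomal RNA were the most numerous group, with 15 of 17 lower (median difference −1.49) and 6 of these at least 4-fold lower. Snora74a, a large-subunit guide in human cells, read 3.73, 2.82 and 4.0 in knockout, against 6.92, 8.38 and 7.87 in wild type. That was 18.5-fold lower (difference −4.21, SE 0.40, limma adjusted p = 0.000607), second among all genes. Snora62 read 5.66, 5.89 and 5.72 in knockout, against 9.32, 9.89 and 9.76 in wild type. Its arrays were tight in both groups, and it was 14.9-fold lower (difference −3.90, SE 0.16) with the lowest adjusted p of the members, 0.000119. Snora81, which also guides large-subunit modification, read 3.69, 3.47 and 3.46 in knockout, against 6.50, 7.21 and 7.02 in wild type, 10.4-fold lower (adjusted p = 0.000136).

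Snora30 read 3.66, 4.27 and 3.24 in knockout, against 6.14, 7.53 and 7.18 in wild type, 9.34-fold lower (limma adjusted p = 0.0012). Snora23 read 6.04, 5.00 and 5.99 in knockout, against 7.92, 9.19 and 8.82 in wild type, 7.79-fold lower (adjusted p = 0.00155). Both guide large-subunit modification in human cells, and in both the lowest wild type array was replicate 1. Snora34 read 5.83, 5.24 and 5.53 in knockout, against 7.10, 8.13 and 7.80 in wild type, 4.43-fold lower (adjusted p = 0.00149). Snora17 read 5.75, 5.27 and 5.28 in knockout, against 6.89, 7.67 and 7.40 in wild type, 3.69-fold lower (adjusted p = 0.00124). The gap between the groups was narrower in these than in Snora62 and Snora81 but no arrays overlapped. Snora21 read 7.69, 7.53 and 7.67 in knockout, against 9.19, 9.41 and 9.48 in wild type, 3.33-fold lower (adjusted p = 0.000262).

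Of the remaining large-subunit guides, Snora7a (2.81-fold), Snora64 (2.77-fold), Snora68 (2.71-fold), Snora52 (2.49-fold), Snora43 (2.17-fold), Snora2b (1.86-fold) and Snora61 (1.62-fold) were lower. Their limma adjusted p ran from 0.000979 for Snora7a to 0.0153 for Snora43, the lower member nearest the threshold. Snora43 did not pass without knockout replicate 1 (adjusted p = 0.0658) or knockout replicate 2 (0.0677), nor did Snora61 without knockout replicate 2 (0.0585) or Snora2b without both arrays numbered 1 (0.0537). Snora16a read 5.80, 5.41 and 5.31 in knockout, against 6.17, 6.75 and 5.73 in wild type, and did not pass (difference −0.71, adjusted p = 0.0942, or 0.0323 without wild type replicate 3). At the threshold of 0.05 Snora16a passed in that 1 of 16 alternative settings, and its adjusted p in limma reached 0.253. Snora3 was the only member with a positive difference, at 6.80, 5.94 and 6.34 in knockout, against 5.52, 6.42 and 6.60 in wild type. The groups overlapped (difference 0.18, adjusted p = 0.759), and the sign turned under quantile normalization (−0.03), without knockout replicate 1 (−0.04), without wild type replicate 1 (−0.15) and without both of these arrays (−0.37).

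Snora73a and Snora73b take part in cleavage of the ribosomal precursor in vertebrates rather than in pseudouridylation. They are near-identical copies in 1 host, so probes of either may read both. Snora73a read 2.78, 3.12 and 3.12 in knockout, against 3.89, 4.31 and 3.62 in wild type, 1.91-fold lower (limma adjusted p = 0.012). It did not pass without knockout replicate 1 (adjusted p = 0.0524) or without both arrays numbered 1 (0.0711). Snora73b read 3.81, 3.80 and 3.51 in knockout, against 4.73, 3.99 and 3.30 in wild type. The groups overlapped, it did not pass (difference −0.30, adjusted p = 0.587), and its difference was 0.06 without wild type replicate 1 and 0.01 without both arrays numbered 1.

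For 5 members no target class was assigned, and 3 of these were lower. Snora33 read 1.40, 1.42 and 1.35 in knockout, against 3.6, 3.58 and 3.27 in wild type, 4.27-fold lower (limma adjusted p = 0.000136), with knockout values below the array medians of all genes. Snora31 read 5.39, 4.84 and 5.20 in knockout, against 6.49, 7.21 and 7.01 in wild type, 3.39-fold lower (adjusted p = 0.00142). Both had groups that did not overlap, as did Snora47, 2.56-fold lower (adjusted p = 0.000665). Snora35, whose host Htr2c encodes a serotonin receptor and which is known as a brain RNA, read 1.04, 1.29 and 1.05 in knockout, against 1.47, 1.57 and 1.32 in wild type. It did not pass (difference −0.32, adjusted p = 0.133), and neither did Snora78 (−0.24, adjusted p = 0.269).

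The Scarna members are fewer than the snoRNAs, and the difference between these classes was not tested. Of 8 Scarna members 7 were lower, with a median difference of −1.24 and a range of −1.44 to −0.64, and 0 reached 4-fold. In all 8 the knockout arrays lay below the wild type arrays. Scarna2, a guide of U2 small nuclear RNA methylation in human cells, read 6.76, 7.28 and 6.97 in knockout, against 8.12, 8.54 and 8.38 in wild type, 2.54-fold lower (limma adjusted p = 0.00173). Scarna9, another U2 methylation guide in human cells, read 4.12, 3.67 and 3.86 in knockout, against 5.08, 6.03 and 4.86 in wild type, 2.71-fold lower (adjusted p = 0.0102, or 0.0511 without knockout replicate 2). Scarna8 guides pseudouridylation of the same RNA in human cells. It read 1.31, 1.41 and 1.38 in knockout, against 1.98, 1.90 and 2.14 in wild type, 1.56-fold lower (adjusted p = 0.00757, or 0.0525 without both arrays numbered 1). The values of both groups lay below the array medians of all genes, so both may be background.

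Scarna6, which carries both box C/D and H/ACA structures in human cells, read 5.37, 5.33 and 4.78 in knockout, against 6.01, 6.52 and 6.26 in wild type, 2.15-fold lower (limma adjusted p = 0.00693). Scarna13, a tandem H/ACA RNA in human cells, read 4.50, 5.05 and 4.52 in knockout, against 5.39, 5.97 and 6.38 in wild type, 2.33-fold lower (adjusted p = 0.0138). It did not pass without knockout replicate 1 (adjusted p = 0.06) or knockout replicate 3 (0.0569). Scarna3a read 3.04, 2.96 and 2.68 in knockout, against 3.61, 3.97 and 3.79 in wild type, 1.86-fold lower (adjusted p = 0.00506). Its copy Scarna3b, which has a different host, read 4.59, 3.91 and 4.89 in knockout, against 5.38, 5.82 and 6.07 in wild type, 2.46-fold lower (adjusted p = 0.0122). As near-identical copies, the Scarna3 pair may share probes. Scarna10, the other composite RNA, read 0.45, 0.53 and 0.61 in knockout, against 1.04, 3.07 and 1.23 in wild type. Wild type replicate 2 stood far above the other wild type arrays, and Scarna10 did not pass (difference −1.25, SE 0.46, adjusted p = 0.105). The difference of Scarna10 was −0.61 without that array (adjusted p = 0.0211) and −1.62 without wild type replicate 1 (adjusted p = 0.0412). All values of Scarna10 except that of wild type replicate 2 lay below the array medians of all genes, so they may be background.

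The members covered a wide span of the array's scale. The mean of a member's row over all arrays lay between the 19th and the 98.8th percentile of all rows, with 11 members above the 90th and 3 below the 30th. These means include the wild type arrays, in which most members read higher, so a member can owe its place to them. Across the 42 members the difference was more negative at higher mean levels (Spearman rho −0.45, Pearson r −0.33), which describes rows of the same 6 arrays that are not independent. Among all genes ordered from the most negative difference, Snora75 was 1st, Snora74a 2nd, Snora62 4th, Snora81 8th, Snora30 9th and Snora23 14th. Members made up 5 of the lowest 10 genes, 8 of the lowest 50 and 12 of the lowest 100.

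Box C/D snoRNAs, which guide ribose methylation with other core proteins, were the nearest comparable class. Of 65 Snord rows 53 were lower in limma and 0 were higher, with 57 and 0 at an unadjusted p under 0.05. Their median difference was −1.47, against −1.37 for the H/ACA members, and their range was −2.93 to 0.14. By array, Snord medians were 3.99, 4.34 and 4.54 in knockout, against 5.36, 6.01 and 5.63 in wild type, again with no overlap. At least 4-fold lower were 10 of 65 Snord rows and 10 of 42 members, and the difference between the classes was not tested. Of the lowest 10 genes 0 were Snord, and of the lowest 100 there were 20.

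Most host genes did not pass the test that their guests passed. A host was taken as the gene whose span holds the small RNA in the RefSeq gene table, and 36 members had a host with a row, in 31 hosts. Of these hosts 25 are protein-coding and 6 are small nucleolar RNA host genes (Snhg). Among the 31 hosts, 3 were higher (Dcaf5, Tcp1, Rpl27a), 3 were lower (Snhg4, Ncapd2, Rpl10) and 25 did not pass, with a median difference of 0.02. The difference of each guest was then tested against that of its host, by limma on guest minus host values per array. Of 36 pairs, 27 were lower in the guest relative to the host at an adjusted p under 0.05 and 0 were higher, with a median shift of −1.36. Over all 85 pairs of Snora, Scarna and Snord RNAs 78.8% were lower, so the share among the members was near that of all such RNAs.

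**Figure D3:**
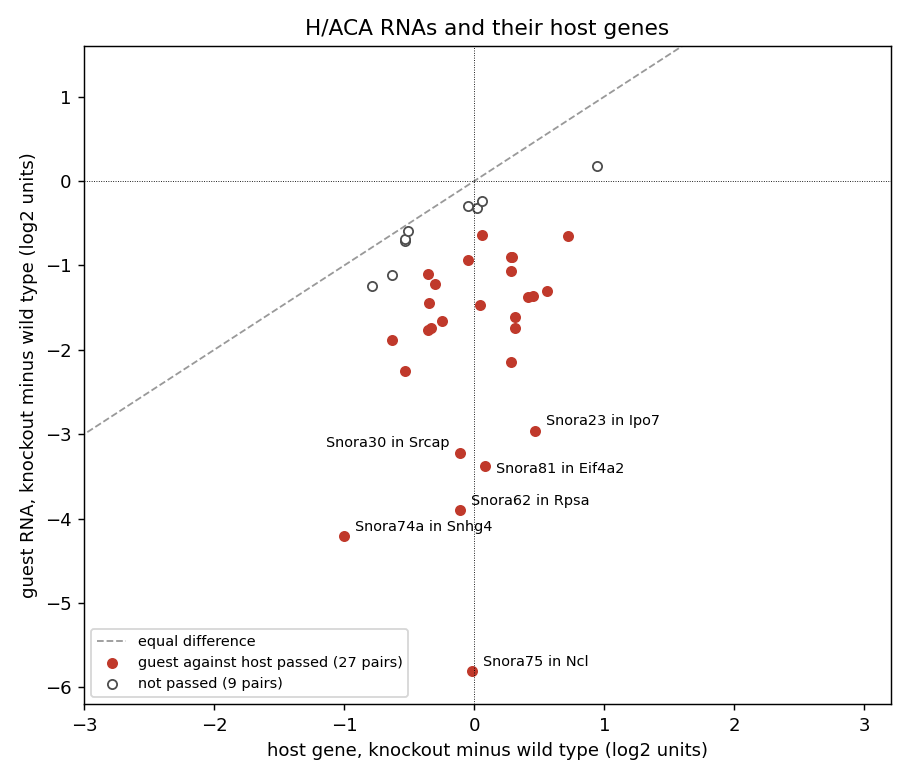
Knockout minus wild type difference of each H/ACA RNA (vertical axis, log2 units) against that of its host gene (horizontal axis, log2 units), 1 point per pair. Red points are the 27 pairs whose guest was lower relative to the host, open points the 9 that did not pass, and the dashed line marks equal differences. Hosts lie within 1 unit of 0 while guests reach −5.81.

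Snora75 lies in Ncl, which encodes nucleolin, an abundant nucleolar protein and a partner of ribosomal RNA transcription. Ncl read 6.75, 6.88 and 6.97 in knockout, against 6.95, 6.82 and 6.89 in wild type, with overlapping groups. The guest was therefore lower relative to its host by nearly its whole difference (shift −5.79, SE 0.38, limma adjusted p over 85 pairs = 1.43e-11). Snora81 lies in Eif4a2, a translation initiation helicase. Eif4a2 read 5.78, 5.74 and 5.63 in knockout, against 5.66, 5.68 and 5.57 in wild type, and the pair shifted by −3.46 (SE 0.31, adjusted p = 2.67e-09). Snora23 lies in Ipo7, an importin that carries ribosomal proteins into the nucleus, which read 7.44, 7.41 and 7.58 in knockout, against 7.31, 6.95 and 6.75 in wild type. The host itself did not pass (adjusted p = 0.0813), and the guest was lower relative to it (shift −3.43, SE 0.39, adjusted p = 1.07e-07). Snora30 lies in Srcap, a chromatin remodeller, with a shift of −3.11 (SE 0.38, adjusted p = 3.34e-07).

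Snora74a was the only lower member whose host was also lower. Its host Snhg4 read 4.21, 3.72 and 4.03 in knockout, against 4.83, 5.08 and 5.05 in wild type (difference −1.0), and the guest was lower still by 3.21 log2 units (shift −3.21, SE 0.34, limma adjusted p = 5.42e-08). Scarna3b was the only lower member whose host was higher. Dcaf5, a ubiquitin ligase adaptor, read 5.48, 5.51 and 5.27 in knockout, against 4.86, 4.93 and 4.8 in wild type, giving a shift of −1.86 (SE 0.34, adjusted p = 5.15e-05). Snora20 had not passed alone but was lower relative to Tcp1, a chaperonin subunit whose row was higher in knockout (shift −1.37, SE 0.33, adjusted p = 0.000806). All values of Snora20 lay below the array medians of all genes, so both of its groups may be background. The other 26 pairs with a lower guest had a host that did not pass.

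Of the hosts of the members described by array, Tbrg4 (Snora5c), Rab3gap2 (Snora36b), Kansl2 (Snora34), Snhg7 (Snora17), Rpl23 (Snora21), Snhg12 (Snora44), Atg16l1 (Scarna6), Haus6 (Scarna8), Cep295 (Scarna9), Snhg10 (Scarna13) and Cop1 (Scarna3a) did not pass. Each of these pairs was lower in the guest, with shifts between −2.42 for Snora34 and −0.70 for Scarna8. In 9 pairs the guest was not called lower relative to its host. Among them were Snora43 in Snhg7 (shift −0.49, limma adjusted p = 0.147) and Snora61 in Snhg12 (−0.17, adjusted p = 0.608), both lower as single genes. The others were Snora16a in Snhg12 (−0.18), Snora73b in Snhg3 (−0.25), Snora35 in Htr2c (−0.35), Snora78 in Snhg9 (−0.31), Snora70 in Rpl10 (−0.09), Scarna10 in Ncapd2 (−0.46) and Snora3 in Rpl27a (−0.76), with adjusted p from 0.0831 to 0.778. Some host rows read low on the scale, where a change in the host may not be measurable. Rpsa, host of Snora62, was at the 33.3rd percentile, Rps2, host of Snora64, at the 12.5th, Rpl10, host of Snora70, at the 8.5th and Tpt1, host of Snora31, at the 7.6th. Guest rows can also read low: all values of Snora20 and Scarna8 lay below the array medians of all genes. Among pairs whose host was above the 50th percentile, 24 of the 31 were lower in the guest. Across the 36 pairs the differences of guest and host correlated weakly (Pearson r 0.19, Spearman rho 0.15), as a description over genes of the same arrays.

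RNAs of the same host were compared with each other, and 4 of the 6 pairs of members differed. Snhg12, Snhg7, Snhg3 and Kansl2 each hold more than 1 member. Guest was tested against guest by limma on their difference per array, adjusted over 34 such pairs of H/ACA and box C/D RNAs, of which 47.1% passed in either direction. Snhg12 holds Snora44, Snora61 and Snora16a. The difference of Snora44 was more negative than that of Snora61 (difference of differences −1.55, SE 0.24, adjusted p = 0.000575). Snora16a minus Snora44 gave 1.54 (SE 0.32, adjusted p = 0.00183), while Snora16a and Snora61 differed by −0.01 (SE 0.24, adjusted p = 0.953). Snora44 thus stood apart from Snora61 and Snora16a, the other members in Snhg12. The row of Snhg12 itself read 3.04, 3.29 and 2.86 in knockout, against 3.11, 4.0 and 3.65 in wild type.

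In Kansl2, which encodes a chromatin regulator, Snora2b was lower by less than Snora34 (difference of differences 1.25, SE 0.28, limma adjusted p = 0.00285). In Snhg7, Snora17 was lower by more than Snora43 (−0.77, SE 0.27, adjusted p = 0.039). In Snhg3 the test of Snora73a against its copy Snora73b did not pass (−0.64, SE 0.32, adjusted p = 0.131). Snora2b read 1.29, 1.06 and 1.72 in knockout, against 2.14, 2.24 and 2.38 in wild type, low on the scale. These pairs were chosen after the values had been seen.

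**Figure D4:**
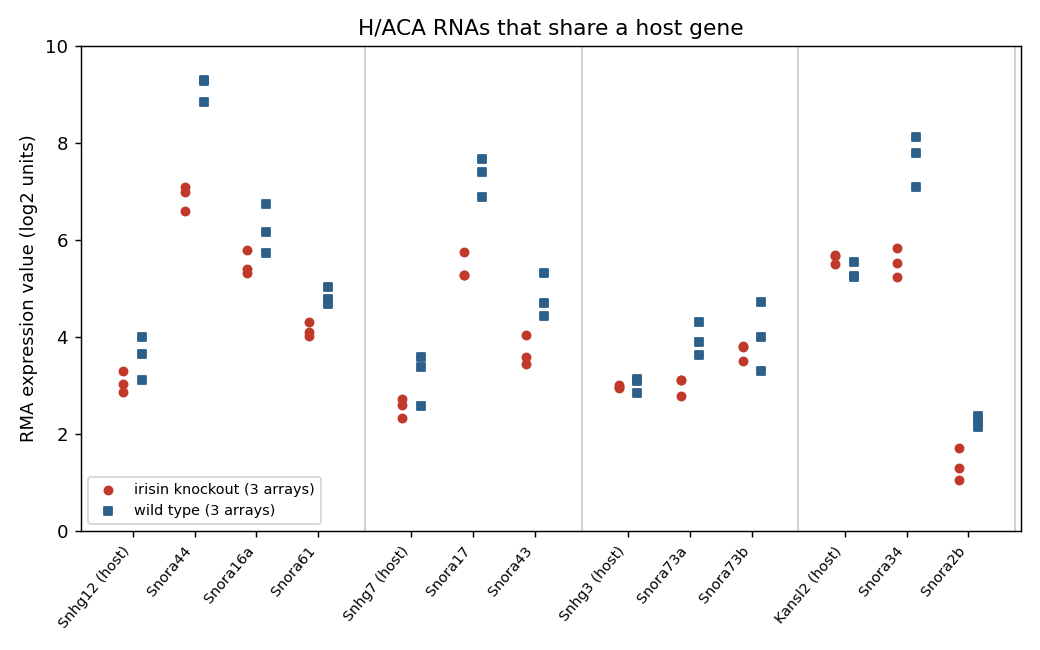
Expression values (log2 RMA units, vertical axis) of hosts with more than 1 H/ACA member and of these members, with knockout arrays as red circles left of wild type arrays as blue squares. Within Snhg12 the gap between the groups is wider in Snora44 than in Snora16a and Snora61. Levels of different genes are read by different probes and are not amounts.

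Genes that make and carry H/ACA particles were examined next. Of 23 genes of this pathway 4 (17.4%) were higher in knockout, 0 were lower and 19 did not pass in limma, with a median difference of 0.08. Over all genes 10.4% were higher, and 20.2% of the genes above the 50th percentile of level, so the share in the pathway was near the background. Without adjustment for multiple tests, 6 were higher and 1 was lower at a p under 0.05. Dkc1, which encodes the pseudouridine synthase dyskerin, read 4.75, 4.70 and 4.25 in knockout, against 3.68, 3.83 and 3.10 in wild type, 2.04-fold higher (difference 1.03, SE 0.22, adjusted p = 0.0135). Its call was lost without knockout replicate 1, without knockout replicate 2 and without both arrays numbered 1, with adjusted p up to 0.0647. Nop10, a core protein bound to dyskerin, read 9.07, 8.71 and 8.85 in knockout, against 8.54, 8.22 and 8.35 in wild type (difference 0.51, SE 0.14, adjusted p = 0.0441). The arrays of the groups did not overlap for either gene. The other core proteins did not pass: Nhp2 read 4.19, 4.47 and 4.34 in knockout, against 4.64, 4.34 and 4.62 in wild type (difference −0.20, adjusted p = 0.381). Gar1 read 3.72, 4.29 and 3.94 in knockout, against 4.04, 4.07 and 3.50 in wild type (difference 0.11, adjusted p = 0.773), and its groups overlapped.

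Among the assembly and maturation factors, Tgs1, which adds further methyl groups to the cap of small nuclear RNAs and of some snoRNAs, read 5.46, 5.18 and 5.21 in knockout, against 4.14, 4.04 and 4.22 in wild type. It was 2.22-fold higher (difference 1.15, SE 0.13, limma adjusted p = 0.00104) and passed in all 16 settings tried at the threshold of 0.05. Pih1d1, part of the chaperone complex that assembles snoRNA particles, read 5.24, 5.25 and 5.06 in knockout, against 4.76, 4.12 and 4.46 in wild type (difference 0.73, SE 0.17, adjusted p = 0.0212). It lost its call without knockout replicate 1, knockout replicate 2 or wild type replicate 3, with adjusted p up to 0.0848. The count of 4 rested on few arrays: it was 1 without knockout replicate 1, 1 without knockout replicate 2 and 2 without wild type replicate 3. Nop10 passed in 9 of 16 settings and lost its call under quantile normalization, and its adjusted p reached 0.379 over these settings. The 5 genes for trimming and release of the RNAs (Parn, Tent4b, Exosc10, Toe1, Dbr1) gave 0 calls, and 0 at an unadjusted p under 0.05. Terc, the telomerase RNA, which carries an H/ACA domain, read 1.07, 1.19 and 1.35 in knockout, against 1.43, 1.82 and 1.75 in wild type. Terc did not pass (difference −0.46, adjusted p = 0.0634) but did so without wild type replicate 1 (adjusted p = 0.0239). At the threshold of 0.05 Terc passed in that 1 of 15 alternative settings, and its adjusted p in limma reached 0.196. All values of Terc lay below the array medians of all genes, so both groups may be background.

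**Figure D5:**
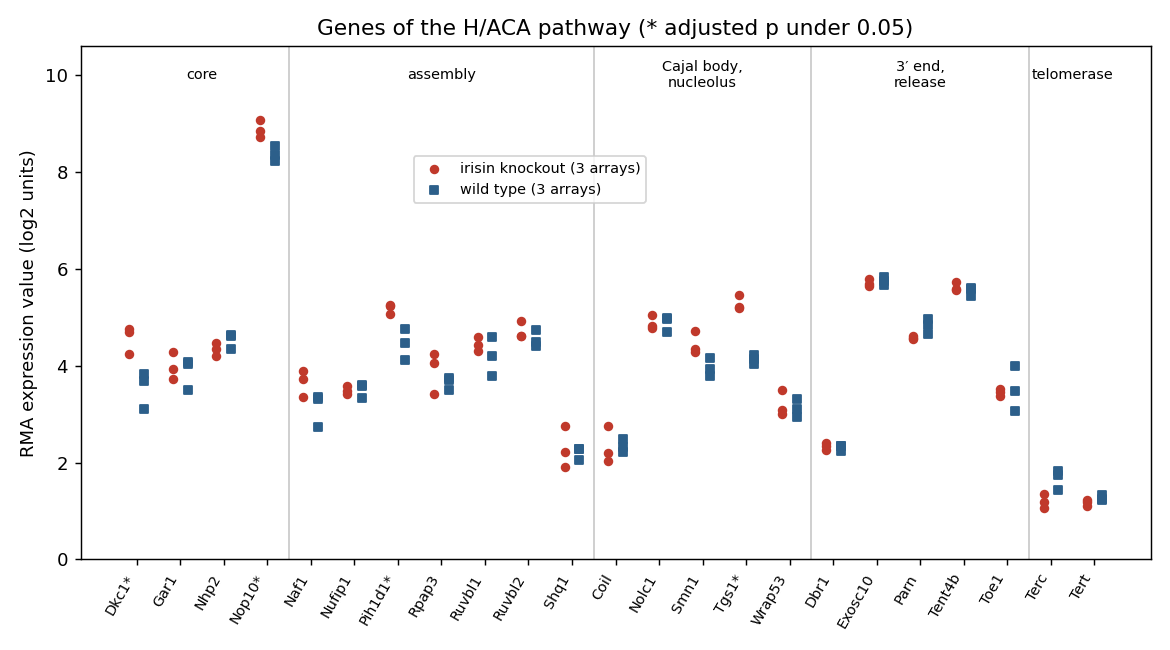
Expression values (log2 RMA units, vertical axis) of 23 genes of the H/ACA pathway, grouped by role, with knockout arrays as red circles left of wild type arrays as blue squares. Asterisks mark the 4 genes past the threshold, Dkc1, Nop10, Pih1d1 and Tgs1, all with knockout arrays above wild type arrays.

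Enzymes that make pseudouridine without a guide RNA showed 1 of 12 lower (8.33%, against 6.18% of all genes) and 0 higher in limma, and 1 in each direction at an unadjusted p under 0.05. The lower gene was Pusl1 (difference −0.50, SE 0.13, limma adjusted p = 0.0333). Box C/D core proteins gave 0 of 3 calls in limma and 1 at an unadjusted p under 0.05, on the higher side. Of 13 genes of RNA polymerase I and the nucleolus, Taf1a (difference 0.99, SE 0.15, adjusted p = 0.00369) and Polr1e (0.84, SE 0.24, adjusted p = 0.0452) were higher and Taf1d (−0.58, SE 0.13, adjusted p = 0.0189) was lower. These shares, 15.4% higher and 7.69% lower, were near those of all genes, 10.4% and 6.18%. Taf1a and Taf1d are subunits of the factor that selects the ribosomal RNA promoter, and Polr1e is a subunit of the polymerase. The precursor of ribosomal RNA itself was not analysed here.

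Other short structured RNAs that are not intron guests were set beside the H/ACA RNAs. Of 8 with a row, 5 were lower (62.5%, against 6.18% of all genes) and 3 did not pass, and their mean per array was 6.14, 6.08 and 6.16 in knockout, against 7.14, 7.72 and 7.52 in wild type. Rpph1, the RNA of RNase P, which trims transfer RNA precursors, read 7.18, 7.26 and 7.15 in knockout, against 9.96, 10.49 and 10.21 in wild type (difference −3.03, SE 0.15, limma adjusted p = 0.000136). Also lower were Rnu11, a minor spliceosome RNA (−2.54, adjusted p = 0.000449), Rnu3a, the box C/D RNA of ribosomal precursor cleavage (−1.91, adjusted p = 0.000737), Rmrp, the RNA of RNase MRP (−1.46, adjusted p = 0.00173), and Rny1 (−0.76, adjusted p = 0.026). Rn7sk (−0.26, adjusted p = 0.612) and Vaultrc5 (−0.26, adjusted p = 0.206) did not pass, nor did Terc, described above. The part of RNA recovery or labelling by transcript length in these differences was not tested.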

How the data were processed

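Per the labels' protocols, RNA came from a TRIzol extraction and was biotin-labelled for Affymetrix arrays (WT Plus reagents). Deposited values are log2 expression values, which the authors made with RMA (affy 1.61.0, R 3.6.0), per the submitters' processing notes. A genome build is not given in the sources used here. That the scale is log2 was inferred from the range of the values. Symbols came from the platform annotation, which named 23185 of 25206 rows, and 2021 unnamed rows stayed out. Of 48 RefSeq genes named as Snora or Scarna, those without a row were not analysed here.

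Groups came from the sample titles. Each gene was tested with lmFit and eBayes of limma 3.58.1 (R 4.3.3), two-sided, with genotype as the only term, Benjamini-Hochberg adjustment over 23185 genes, a threshold of 0.05 and no filter on dim genes. All differences are log2 values of knockout less wild type. Hosts were to be taken on the same strand, but the gene table carries no strand, so containment alone was used. The host was the shortest gene holding the RNA among those with a row, or the shortest of all where none had a row. Pairs of guest and host were tested on guest minus host per array over 85 pairs. The code was tested on simulated data. Target classes were assigned from background knowledge of human snoRNAs.

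Members and gene lists were chosen with earlier results of these data known. Values in each array are given for the 15 members lower by the largest differences, for every Scarna member, and for listed genes past the threshold; further members were given by array after their values were seen. Alternatives were other scalings, filters on dim genes, variance models, array weights, a replicate block, left-out arrays and other thresholds. Figures used Python 3.11.15 and matplotlib 3.10.9.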

Additional observations from a re-analysis of the deposited data

How the results depend on the processing

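The count of lower members was 34 and lay between 27 and 36 over 18 alternatives, the count of higher members was 0 in each, and the median difference ran from −1.56 to −1.26. Leaving out 1 array at a time gave 31 to 36 lower members and 23 to 28 shifted pairs. The shifted pairs, 27 of 36 in the reported fit, numbered 21 to 28 over all alternatives. The filters on dim genes tested fewer pairs: 21 of 26 shifted without the dimmest 50% of genes and 24 of 30 without the dimmest 30%. Centring each array on its median moved the median of all genes to 0.07, against −0.05 as deposited and 0 after quantile normalization, and 34 members were lower under each of these scalings. Of the 34 lower members 27 passed in every setting that tested them at the threshold of 0.05. Leaving out 1 array at a time gave Snora3 −0.15 to 0.39 and Snora73b −0.65 to 0.06. Signs turned in 6 of 662 member values: Snora3 gave −0.03 after quantile normalization, −0.04 without knockout replicate 1, −0.15 without wild type replicate 1 and −0.37 without both arrays numbered 1, and Snora73b gave 0.06 and 0.01 in these last settings. The count of higher pathway genes, 4 as reported, was 1 to 4 when 1 array was left out, 2 without both arrays numbered 1 and 1 at a threshold of 0.01. Their count of lower genes was 0 to 1 when 1 array was left out and 1 at a threshold of 0.1; the cause was not tested, beyond the stricter or looser threshold itself. Deviations of same-numbered arrays correlated by 0.09, 0.048 and 0.07, the best match for each knockout array. For wild type replicate 2 the best match was knockout replicate 3 (0.055). Correlations this weak cannot decide whether same-numbered arrays belong together. With the replicate number as a block, 34 members were lower, 28 pairs shifted, 4 pathway genes were higher and 0 lower, 0 members were higher and the median difference was −1.37. Testing all rows does not apply to the pairs. Restricting hosts to rows above the 50th percentile, chosen after seeing the data, left 24 shifted pairs; the same restriction on members (31 lower), and the filters on dim genes, keep some members through their wild type values, so these counts are no measure of stability. Values near the bottom of the scale may be background, since detection calls were not used.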
